A study of Homo sapiens with 25 samples.

Results

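The genes described here are the SR protein genes (SRSF) and the heterogeneous nuclear ribonucleoprotein genes (HNRNP), which encode RNA-binding proteins that steer the splicing of pre-mRNA. They were taken from the RNA count table of A549 cells by symbol, as every SRSF gene with a number and every HNRNP gene that is neither a pseudogene nor a read-through, with a mean of at least 5 CPM (counts scaled by library size) over the 12 libraries. Of 28395 genes in the table, 42 had a matching symbol, 5 of these were pseudogenes or read-through genes and 5 lay under the minimum, which left 32 genes, 11 SRSF and 21 HNRNP. All 32 passed the filter on low counts and were among the 14658 genes tested. Just inside the minimum lay HNRNPH2 at 5.07 CPM and HNRNPA1L2 at 9.69 CPM, and just outside it SRSF12 at 1.26 CPM, while HNRNPCL1, HNRNPCL2, HNRNPCL3 and HNRNPCL4 were at or near 0.

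A549 is an established human lung carcinoma line, and all 4 groups used a derivative of it in which TRRAP carries an auxin-inducible degron (mAID-TRRAP). The genotype field reads WT although the culture conditions are those of mAID-TRRAP cells, and nothing says whether the line is a single clone. Every group was held in 2 mM thymidine for 20 h and then released for 4 h, which the design text calls S-phase synchronization. The groups of 3 libraries each were DMSO, which had no other agent, prexasertib, which inhibits CHK1, a kinase of the replication checkpoint, given for 3 h, 5-Ph-IAA at 1 µM for 6 h, the auxin analogue that triggers degradation of mAID-TRRAP, and both drugs together. The prexasertib dose is not given here because the labels of the RNA and chromatin samples differ in its unit. The 13 CUT&RUN samples of the series were not analysed here. The question posed to these genes was how their mRNA differed after 5-Ph-IAA, after prexasertib, and after both. No RNA group is listed as cells without the degron given 5-Ph-IAA. Effects of that compound and of TRRAP loss therefore cannot be told apart here.

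As background, SR proteins carry RNA recognition motifs and a tail rich in arginine and serine, bind exonic enhancers and help the spliceosome to recognise neighbouring splice sites. The hnRNP proteins coat nascent transcripts, often silence exons, and take part in export, stability and translation of mRNA. Many genes of both families limit their own output through poison exons or intron retention, whose transcripts are removed by nonsense-mediated decay, and several of them, SRSF1 among them, are known for high expression in carcinomas. TRRAP is a large scaffold protein shared by the SAGA and TIP60 acetyltransferases that transcription factors such as MYC and E2F recruit to promoters.

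Total counts per library ran from 10830048 to 17789482, with 17135 to 18912 genes detected, and 5.1% to 5.73% of counts fell on the 10 leading genes. The counts of single SR and hnRNP genes ran from 49 to 15763 per library. Of 6 epithelial markers, the keratins KRT7, KRT8 and KRT18 were at 3010, 3250 and 2110 CPM and CDH1 at 98.8 CPM on library size alone, whereas KRT19 was at 4.24 and EPCAM at 0.807 CPM. The sum of the 6 ran from 7930 to 9530 CPM in DMSO, 7790 to 9230 in prexasertib, 7450 to 8220 in 5-Ph-IAA and 7560 to 8770 with both drugs. The sum of 12 markers of other cell types ran from 110 to 126, 118 to 127, 111 to 135 and 109 to 132 CPM in the same order, and the blood and endothelial markers PTPRC, CD3E, PECAM1, VWF and CDH5 were each at 0.39 CPM or less, while CD68, COL1A1, SNAP25 and SYT1 were at 30.6, 31.7, 48.4 and 8.96 CPM. After 5-Ph-IAA, KRT7 and KRT8 fell by 0.3 and 0.34 on the log2 scale, KRT18 had -0.39 (edgeR adjusted p 0.054), and PDGFRB rose, from a mean of 0.892 to 2.71 CPM; their part in the results below was not tested. TRRAP mRNA was at 83.2 ± 9.9 CPM in DMSO, 74.8 ± 10.4 in prexasertib, 133 ± 15.3 in 5-Ph-IAA and 119 ± 20.8 after combined treatment (SD, n = 3). The degron acts on the protein, so this mRNA does not check the labels. Libraries numbered 3 stood apart from those numbered 1 and 2, so the main counts are also given without them.

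The promoters of 4 genes are printed because HNRNPDL and HNRNPD, neighbours on chromosome 4 that are separated by 48572 bp, and SRSF1 had the largest decreases after 5-Ph-IAA among genes with an entry, whereas SRSF9 did not pass the test. Each line holds the 250 bases upstream of the outermost annotated start, 5′ to 3′ on the gene's strand, from RefSeq (GRCh38.p14; the submitters' processing notes name hg38). HNRNPD is from chr4:82373992-82374241, minus strand, HNRNPDL from chr4:82430463-82430712, minus strand, SRSF1 from chr17:58007247-58007496, minus strand, and SRSF9 from chr12:120469749-120469998, minus strand. Capitals mark matches, on either strand, to CACGTG (the E-box of MYC-MAX), CCAAT (the NF-Y box), CCGGAAG (ETS factors), TTTGAA (the CHR element) or GGCGGGAA (E2F).
HNRNPD: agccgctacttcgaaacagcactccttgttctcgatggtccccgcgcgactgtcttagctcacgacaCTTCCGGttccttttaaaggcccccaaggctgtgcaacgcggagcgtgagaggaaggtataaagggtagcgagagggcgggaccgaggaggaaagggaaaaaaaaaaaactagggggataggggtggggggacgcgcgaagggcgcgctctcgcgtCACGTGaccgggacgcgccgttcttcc
HNRNPDL: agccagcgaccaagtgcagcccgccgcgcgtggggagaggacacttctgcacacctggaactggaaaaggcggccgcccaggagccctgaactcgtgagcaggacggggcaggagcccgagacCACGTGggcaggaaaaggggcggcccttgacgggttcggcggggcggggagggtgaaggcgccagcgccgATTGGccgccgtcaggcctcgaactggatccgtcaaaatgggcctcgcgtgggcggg
SRSF1: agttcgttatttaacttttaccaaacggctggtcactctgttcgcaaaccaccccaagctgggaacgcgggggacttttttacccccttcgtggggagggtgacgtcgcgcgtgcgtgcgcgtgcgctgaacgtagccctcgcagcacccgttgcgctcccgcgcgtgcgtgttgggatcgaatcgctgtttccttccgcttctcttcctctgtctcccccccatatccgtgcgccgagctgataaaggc
SRSF9: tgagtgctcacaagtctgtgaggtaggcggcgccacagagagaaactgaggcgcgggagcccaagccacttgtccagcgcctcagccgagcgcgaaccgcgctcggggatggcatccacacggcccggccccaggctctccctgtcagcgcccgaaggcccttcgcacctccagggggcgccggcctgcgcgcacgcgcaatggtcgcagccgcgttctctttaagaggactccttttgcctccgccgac
HNRNPD held CCGGAAG, on the opposite strand, 183 bases before its start and CACGTG 27 bases before it, and HNRNPDL held CACGTG 127 bases and CCAAT, on the opposite strand, 57 bases before its start. The windows of SRSF1 and SRSF9 held no match.

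Such a window at the outermost start was found for 29 of the 32 genes, the exceptions being SRSF2, HNRNPA1 and HNRNPF, and for 10085 of the genes tested. CACGTG stood in 6 of the 29 (20.7%), namely HNRNPA3, HNRNPD, HNRNPDL, HNRNPH2, HNRNPH3 and HNRNPM, and in 883 of the 10085 (8.76%). CCAAT stood in 15 (51.7%) against 35.5% of all tested, CCGGAAG in 4 (13.8%) against 15.6%, TTTGAA in 2 (6.9%, SRSF6 and SRSF11) against 8.36%, and GGCGGGAA in 3 (10.3%) against 4.51%. The median log2 fold change of 5-Ph-IAA against DMSO was -0.43 over the 6 genes with CACGTG and -0.49 over the 23 without it. In the same order, with and without the motif, the medians were -0.49 and -0.36 for CCAAT, -0.34 and -0.45 for CCGGAAG, -0.4 and -0.45 for TTTGAA, and -0.49 and -0.44 for GGCGGGAA, the last 3 resting on 4 genes or fewer with the motif. None of the 5 motifs contains another, and a match describes letters, not binding.

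After 5-Ph-IAA the SR and hnRNP genes took a smaller share of the mRNA counts. In DMSO the 32 genes together held 1.02% ± 0.0229 of all counts, and in prexasertib 1% ± 0.0157. This share was 0.783% ± 0.0129 in 5-Ph-IAA and 0.785% ± 0.0229 after combined treatment (SD, n = 3). Both families contributed, since the SRSF genes went from 0.218% ± 0.0121 in DMSO to 0.16% ± 0.00846 in 5-Ph-IAA and the HNRNP genes from 0.799% ± 0.0169 to 0.623% ± 0.00525. In bulk RNA, fewer cells with these transcripts and less of them per cell cannot be told apart, and a share says nothing about the total mRNA of a cell, which was not measured.

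**Figure D1:**
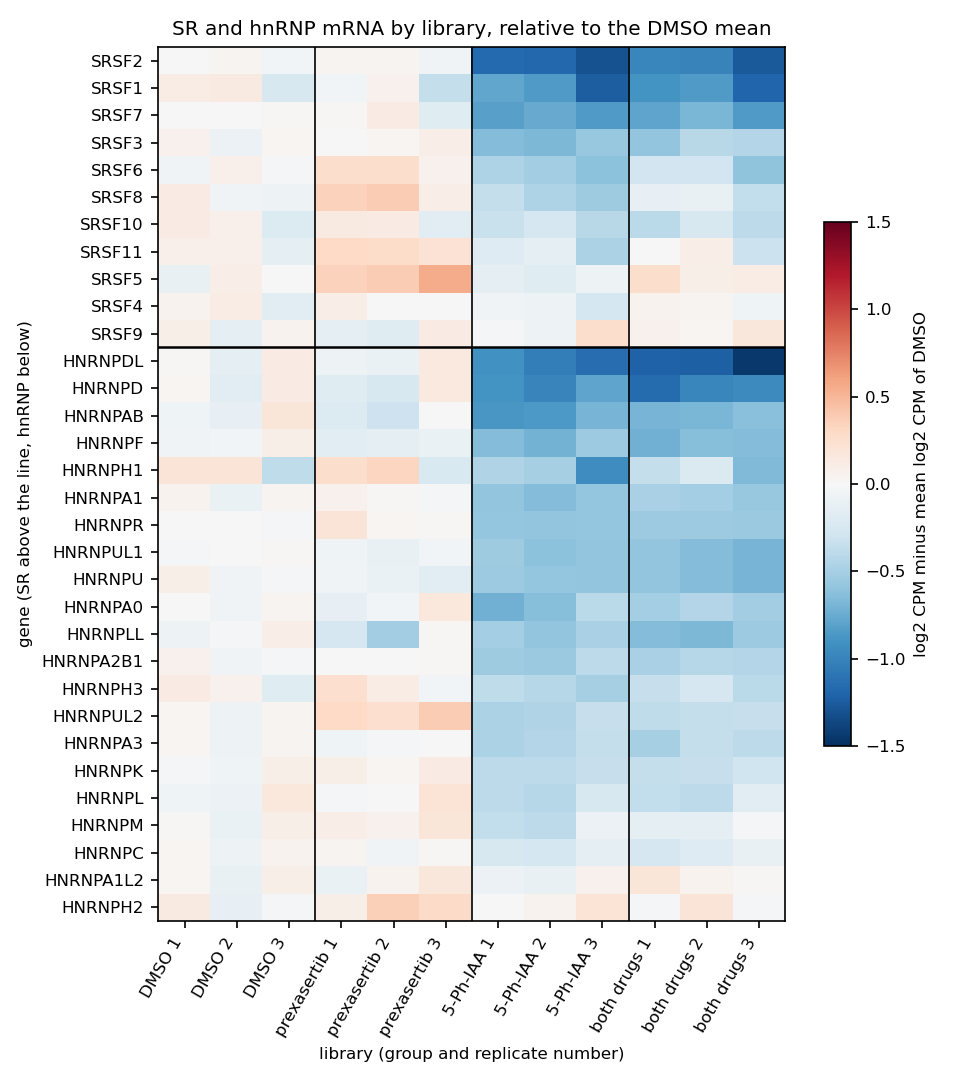
Each row is 1 of the 32 genes and each column 1 of the 12 libraries, and colour gives the log2 CPM of that library minus the mean log2 CPM of the 3 DMSO libraries. The 6 columns with 5-Ph-IAA are blue for most rows, with SRSF2 and HNRNPDL the deepest, while SRSF4, SRSF5, SRSF9, HNRNPA1L2 and HNRNPH2 stay pale or turn red there.

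In the comparison of 5-Ph-IAA with DMSO, 26 of the 32 genes fell and 0 rose, at an edgeR adjusted p under 0.05 over all genes tested. Of all 14658 genes, 12.2% fell and 9.65% rose, and among the 11181 genes at 5 CPM or more, the minimum used for the SR and hnRNP genes, 15.6% fell. The decrease took in 7 of 11 SRSF and 19 of 21 HNRNP genes. Their log2 fold changes ran from -1.22 to 0.08 with a median of -0.51, against a median of 0.01 over all genes tested. In 25 of the 32 genes all 3 libraries with 5-Ph-IAA lay below all 3 DMSO libraries, as they did in 18.9% of all genes. DESeq2 and limma-voom each gave 26 decreases and 0 increases, where 13.6% and 12.7% of all genes fell, and edgeR on the libraries numbered 1 and 2 alone gave 27 and 0, where 19.3% fell. At an unadjusted p under 0.05, 27 of the 32 genes passed, all of them lower, against 34.6% of all genes in either direction. When libraries were scaled by size alone, without TMM factors (edgeR's scaling between libraries), the log2 fold changes of all genes shifted upward by a median of 0.16. Of the 26 genes, 19 then remained called, and the median log2 fold change of the 32 was -0.36. That scaling gave 6.73% of all genes as lower and 20.6% as higher, so that 75.4% of calls were increases in place of 44.2%.

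SRSF2, at chr17:76734115-76737411, which encodes an SR protein of nuclear speckles that binds exonic enhancers, had the largest decrease. It was at 374, 383 and 361 CPM in DMSO, at 383, 384 and 358 in prexasertib, at 166, 165 and 151 in 5-Ph-IAA and at 188, 186 and 155 with both drugs. Every library with 5-Ph-IAA was far below every library without it. SRSF2 fell by 56.9% after 5-Ph-IAA, a log2 fold change of -1.22 ± 0.08 (SE) with an edgeR adjusted p of 8.1e-07. SRSF2 overlaps MFSD11, which was at 28 CPM and changed by 0.16 on the log2 scale (edgeR adjusted p 0.36). SRSF8, a retroposed copy of SRSF2, was at 49.8, 44.1 and 43.5 CPM in DMSO and at 35.6, 33.2 and 31.5 in 5-Ph-IAA, without overlap. Its log2 fold change was -0.45 ± 0.1 (edgeR adjusted p 0.0072), and -0.30 with an adjusted p of 0.071 on library size alone. Reads of such related copies may be split between them, which was not checked.

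SRSF1, at chr17:57989038-58007246, the founding SR splicing factor and a known oncogene, was at 426, 433 and 334 CPM in DMSO and at 229, 218 and 167 in 5-Ph-IAA. With prexasertib alone it was at 383, 414 and 308 CPM, and with both drugs at 212, 220 and 174. In each of these groups the library numbered 3 was the lowest, and the groups with and without 5-Ph-IAA still did not overlap. The log2 fold change of SRSF1 was -0.96 ± 0.15 (edgeR adjusted p 0.00073), the SE being the largest among the SRSF genes. SRSF7, which also serves mRNA export, was at 206, 207 and 209 CPM in DMSO and at 118, 122 and 115 in 5-Ph-IAA, a tight pair of groups with a log2 fold change of -0.81 ± 0.079 (SE; edgeR adjusted p 1.4e-05). SRSF3, the smallest SR protein and likewise an export adaptor, was at 422, 380 and 411 CPM in DMSO and at 258, 254 and 272 in 5-Ph-IAA, a log2 fold change of -0.63 ± 0.071 (SE; edgeR adjusted p 4.8e-05).

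Of the other SRSF genes, SRSF6 and SRSF10 fell and 4 did not pass the test. SRSF6 fell by 0.53 on the log2 scale (edgeR adjusted p 0.0011) and SRSF10, a splicing repressor when dephosphorylated, by 0.34 (edgeR adjusted p 0.029, and 0.26 on library size alone). SRSF11 had -0.26 (edgeR adjusted p 0.12, and 0.00074 with the replicate number as a block), SRSF5 -0.14 and SRSF4 -0.14. SRSF9 had the only positive value in the family, 0.06 ± 0.1 (edgeR adjusted p 0.74). It was at 191, 162 and 185 CPM in DMSO and at 176, 170 and 215 in 5-Ph-IAA, overlapping ranges. SRSF9 overlaps GATC, which was at 88.8 CPM and had a log2 fold change of 0.03, so part of its counts may belong to that gene, and SRSF4 overlaps MECR at 21.2 CPM.

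**Figure D2:**
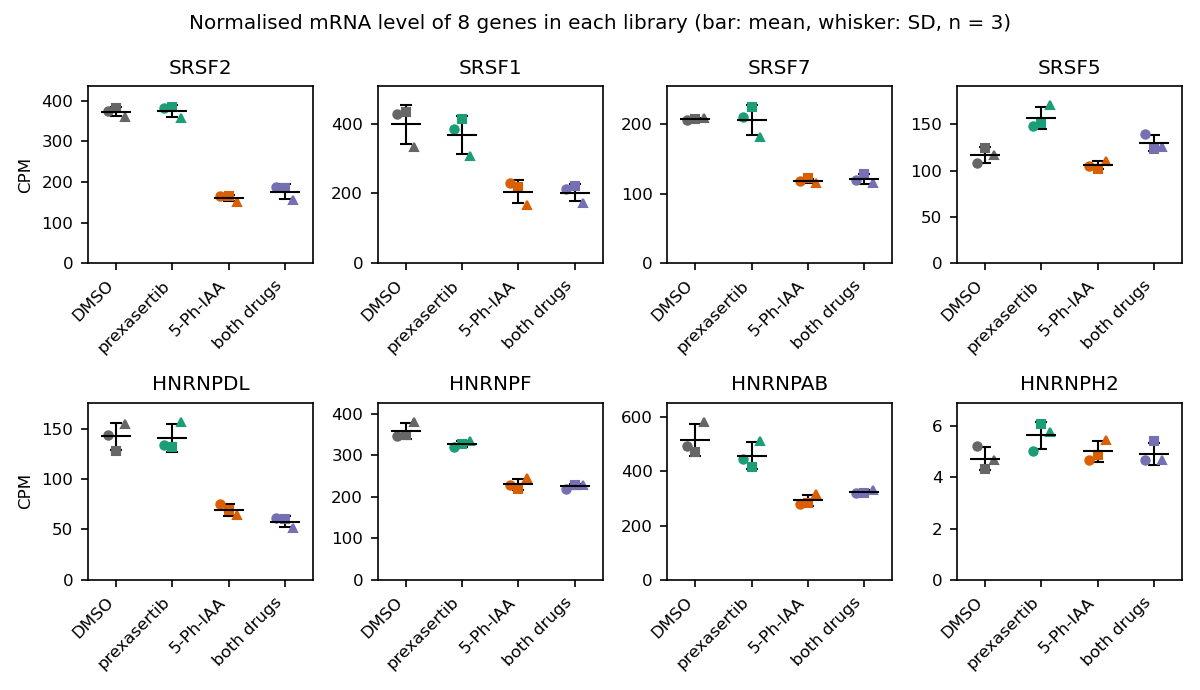
Each panel gives 1 gene's CPM on a linear axis from 0, with 1 symbol per library (circle, square and triangle for the libraries numbered 1, 2 and 3), the group mean as a bar and the SD as whiskers. SRSF2, SRSF1, SRSF7, HNRNPDL, HNRNPF and HNRNPAB are lower in both groups with 5-Ph-IAA, SRSF5 is highest with prexasertib alone, and the groups of HNRNPH2 overlap.

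Among the hnRNP genes the largest decreases were those of HNRNPDL and its neighbour and paralogue HNRNPD, whose promoters are printed above. HNRNPD encodes AUF1, a binder of AU-rich elements that governs mRNA decay. HNRNPDL, at chr4:82422564-82430462, was at 144, 128 and 155 CPM in DMSO, at 134, 132 and 157 in prexasertib, at 75.7, 68.9 and 64 in 5-Ph-IAA and at 60.9, 60.5 and 51.7 with both drugs. Its levels with 5-Ph-IAA were all below those without, by a log2 fold change of -1.03 ± 0.1 (SE; edgeR adjusted p 1.4e-05). HNRNPD, at chr4:82352498-82373991, was at 222, 195 and 237 CPM in DMSO and at 117, 109 and 126 in 5-Ph-IAA, a log2 fold change of -0.89 ± 0.11 (SE; edgeR adjusted p 8e-05). HNRNPAB, of the same subgroup, followed with -0.81 ± 0.096 (edgeR adjusted p 7.4e-05).

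The smallest adjusted p-values of the family after HNRNPDL belonged to HNRNPF, HNRNPUL1 and HNRNPR. HNRNPF, a binder of G-tracts at chr10:43385618-43409186, was at 347, 349 and 382 CPM in DMSO and at 228, 219 and 245 in 5-Ph-IAA, a log2 fold change of -0.64 ± 0.066 (SE; edgeR adjusted p 2.5e-05). HNRNPUL1, a relative of HNRNPU at chr19:41262557-41307787, was at 564, 575 and 580 CPM in DMSO and at 395, 375 and 382 in 5-Ph-IAA, a log2 fold change of -0.58 ± 0.06 (SE; edgeR adjusted p 2.6e-05). HNRNPR, a close relative of SYNCRIP at chr1:23304688-23344284, was at 281, 282 and 276 CPM in DMSO and at 187, 185 and 187 in 5-Ph-IAA, a log2 fold change of -0.59 ± 0.062 (SE; edgeR adjusted p 2.7e-05). Libraries of a group differed little in these 3 genes, whose changes were smaller than that of SRSF1 and had smaller p-values.

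The core A and B group fell as well, with HNRNPA1 at -0.61, HNRNPA2B1 at -0.49, HNRNPA0 at -0.58 and HNRNPA3 at -0.42 on the log2 scale. HNRNPA1 was at 689, 623 and 685 CPM in DMSO and at 440, 423 and 444 in 5-Ph-IAA. HNRNPU, the scaffold attachment factor of nuclear chromatin, fell by 0.58 on the log2 scale, HNRNPUL2 by 0.43 and HNRNPK, a KH-domain protein that binds C-rich RNA, by 0.38. HNRNPLL, which binds CA repeats, fell by 0.53 and its relative HNRNPL by 0.35, and HNRNPH3 by 0.44. The 3 calls nearest the threshold were HNRNPM at -0.28 (edgeR adjusted p 0.034), HNRNPH1 at -0.64 (edgeR adjusted p 0.037) and HNRNPC, which binds U-tracts in nascent RNA, at -0.21 (edgeR adjusted p 0.04). HNRNPM was called although its groups overlapped. HNRNPH1 had a wide spread, at 658, 660 and 442 CPM in DMSO and at 421, 407 and 303 in 5-Ph-IAA. On library size alone the calls of HNRNPC, HNRNPH1 and HNRNPM were lost, with adjusted p-values of 0.5, 0.13 and 0.21, as were those of HNRNPL (0.089) and HNRNPH3 (0.052).

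HNRNPA1L2 and HNRNPH2 were the 2 hnRNP genes that did not pass the test, and they were also the 2 with the fewest counts. HNRNPH2, an X-linked relative of HNRNPH1, was at 5.2, 4.31 and 4.67 CPM in DMSO and at 4.68, 4.88 and 5.46 in 5-Ph-IAA, a log2 fold change of 0.08 ± 0.17 (SE; edgeR adjusted p 0.79). HNRNPA1L2, a copy of HNRNPA1, had -0.05 ± 0.13 (edgeR adjusted p 0.84). Reads of HNRNPA1 and its copies, among them the pseudogene HNRNPA1P10 at 16.9 CPM, may be split between them. Across the 32 genes the log2 fold change had a Spearman correlation of -0.362 with the DMSO level in CPM and of 0.174 with the span of the gene, as a description over genes that share the same 6 libraries.

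The same comparison in the presence of prexasertib uses the other 6 libraries. With both drugs against prexasertib alone, 24 of the 32 genes fell (8 SRSF and 16 HNRNP) and 0 rose, where 10.4% of all genes fell and 7.85% rose, and 13.3% of the genes at 5 CPM or more fell. The median log2 fold change was -0.49, and in 27 genes all 3 libraries with both drugs lay below all 3 with prexasertib, against 17.6% of all genes. DESeq2 gave 27 decreases and limma-voom 24, each with 0 increases, where 12% and 10.2% of all genes fell, and edgeR without the libraries numbered 3 gave 28 decreases, where 17.4% fell, and 1 increase (SRSF9). At an unadjusted p under 0.05, 28 genes passed, against 31.2% of all genes. Library size alone shifted the log2 fold changes of all genes upward by a median of 0.14 and made 74.3% of calls increases in place of 43%. Of the 26 and 24 genes that fell, 23 were shared, 88.5% of the first set and 95.8% of the second. Over all genes, 1199 of 1787 and 1524 were shared (67.1% and 78.7%). HNRNPC, HNRNPH1 and HNRNPM were called without prexasertib and not with it, and SRSF5 with it and not without. The log2 fold changes of the first 3, without and with prexasertib, were -0.21 and -0.19, -0.64 and -0.54, and -0.28 and -0.22, and with the replicate number as a block they passed in the prexasertib arm too, with adjusted p-values of 0.0017, 4e-12 and 0.00048. The call of SRSF5 was lost on library size alone (adjusted p 0.25) and without replicate 2 or 3 of either prexasertib or both drugs.

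**Figure D3:**
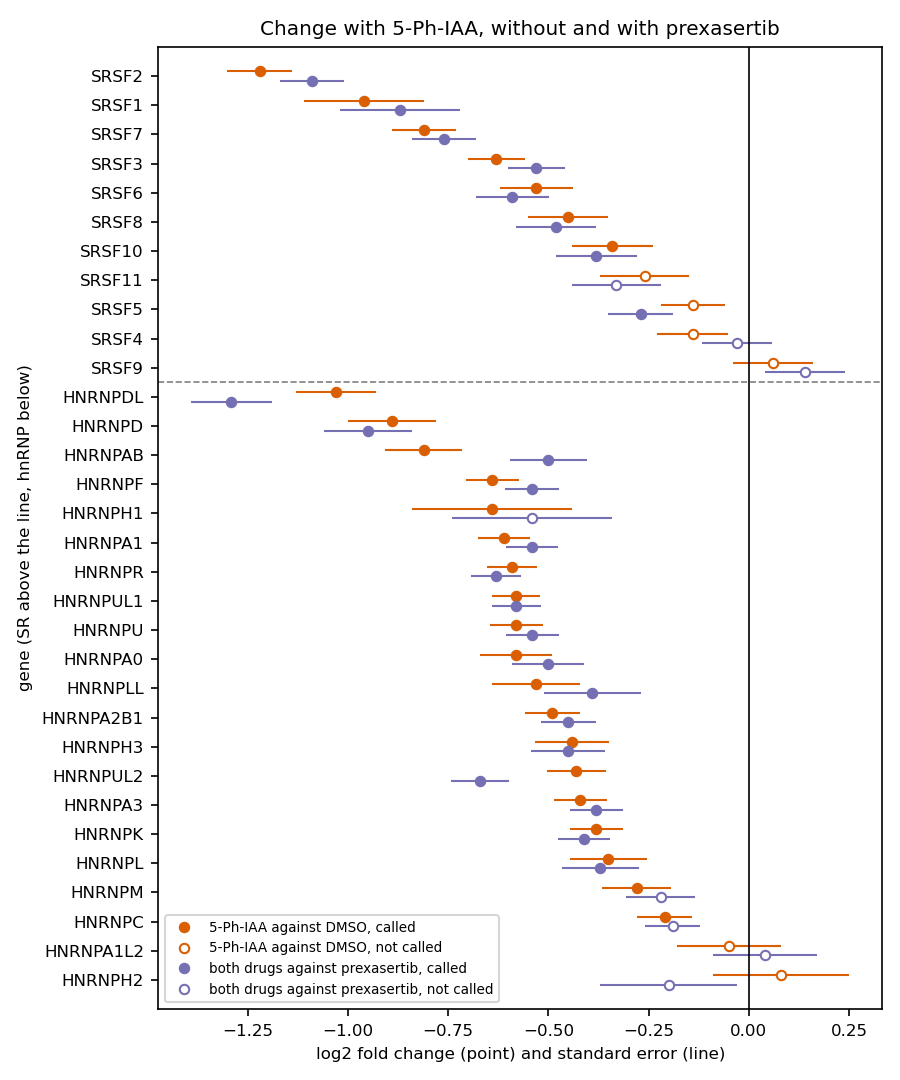
For each of the 32 genes the point is the log2 fold change and the line its SE, in orange for 5-Ph-IAA against DMSO and in purple for both drugs against prexasertib, filled where the gene was called. The 2 estimates lie close together for most genes, from SRSF2 at -1.22 and -1.09 to HNRNPC at -0.21 and -0.19, and they lie furthest apart for HNRNPAB and HNRNPDL among the called genes.

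SRSF2 fell by 1.09 on the log2 scale in that arm (edgeR adjusted p 2.4e-06), HNRNPDL by 1.29 (edgeR adjusted p 3.4e-06), SRSF1 by 0.87 (edgeR adjusted p 0.0017) and SRSF7 by 0.76 (edgeR adjusted p 2.7e-05). HNRNPR was at 320, 286 and 283 CPM in prexasertib and at 192, 191 and 191 with both drugs, and HNRNPUL1 at 549, 529 and 557 and then at 379, 364 and 353. Both genes had again a spread well below the gap between groups. HNRNPF was at 320, 328 and 335 CPM in prexasertib and at 218, 230 and 229 with both drugs. SRSF3 was at 402, 413 and 434 CPM and then at 268, 304 and 297, and SRSF7 at 210, 225 and 182 and then at 120, 129 and 115. None of these 5 genes had overlapping groups. SRSF9 had 0.14 ± 0.1 with libraries of both drugs at 187, 182 and 202 CPM (edgeR adjusted p 0.38, and 0.037 both with the replicate number as a block and on library size alone).

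Prexasertib alone changed few of these genes. Against DMSO, 2 of the 32 rose and 0 fell, where 2.36% of all genes rose and 2.37% fell, and the median log2 fold change was 0.03. Library size alone left 37.3% of all calls as increases in place of 49.9%. With the replicate number as a block 5 rose and 2 fell, where 8.37% of all genes rose and 9.77% fell. DESeq2 and limma-voom each gave 2 increases and 0 decreases, where 3.51% and 2.25% of all genes rose and 3.23% and 2.16% fell. At an unadjusted p under 0.05, 5 of the 32 genes passed (15.6%), all of them higher, against 17.5% of all genes in either direction.

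SRSF5, at chr14:69767142-69772005, an SR protein known from insulin-responsive splicing, was the gene with the largest increase. It was at 108, 125 and 117 CPM in DMSO, at 148, 152 and 171 in prexasertib, at 105, 102 and 111 in 5-Ph-IAA and at 140, 124 and 126 with both drugs. All 3 libraries with prexasertib alone stood above all the others, of which the highest was at 140. The log2 fold change of prexasertib against DMSO was 0.43 ± 0.08 (edgeR adjusted p 0.0078). HNRNPUL2, at chr11:62712630-62727457, was at 61.4, 56.9 and 61.6 CPM in DMSO and at 73.5, 71.6 and 77.8 in prexasertib, without overlap, a log2 fold change of 0.31 ± 0.072 (SE; edgeR adjusted p 0.026). The call of HNRNPUL2 was lost when any of the 3 DMSO or 3 prexasertib libraries was left out, and without the count filter (adjusted p 0.063). In 5-Ph-IAA it was at 43.1, 43.8 and 47.1 CPM and with both drugs at 46.1, 46.9 and 47.3.

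The blocked fit added SRSF11 (0.26, adjusted p 0.002), SRSF8 (0.28, adjusted p 0.0081) and SRSF6 (0.19, adjusted p 0.0084) among the increases, and HNRNPAB (-0.17, adjusted p 0.013) and HNRNPLL (-0.24, adjusted p 0.033) among the decreases. SRSF8 was at 58.2, 59.6 and 49.2 CPM in prexasertib, of which the lowest lay below the highest DMSO library. HNRNPLL was at 48.1, 50.1 and 54.5 CPM in DMSO and at 42.6, 35.3 and 51.3 in prexasertib, overlapping ranges. The decreases nearest the threshold without the block were HNRNPLL and HNRNPF, with adjusted p-values of 0.3 and 0.32. HNRNPF was lower in all 3 prexasertib libraries than in any DMSO library, by 0.14 on average on the log2 scale. Among SRSF genes the most negative values were -0.11 for SRSF1 and -0.06 for SRSF9, whose prexasertib libraries were at 163, 158 and 195 CPM, and HNRNPH2 had 0.25 at 5.03, 6.09 and 5.77 CPM, with 4.67, 5.41 and 4.67 CPM after both drugs.

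With 5-Ph-IAA present in both groups, adding prexasertib changed none of the 32 genes at the threshold. Both drugs against 5-Ph-IAA gave 0 increases and 0 decreases by edgeR and by limma-voom, where 1.17% of all genes rose and 1.26% fell by edgeR, and DESeq2 gave 1 increase (SRSF5), where 2.13% of all genes rose. At an unadjusted p under 0.05, 3 genes passed (9.38%), against 13.8% of all genes. Those were SRSF5 at 0.29 ± 0.08 (edgeR adjusted p 0.076), HNRNPDL at -0.27 (edgeR adjusted p 0.23) and SRSF8 at 0.25 (edgeR adjusted p 0.28). Library size alone left 31.6% of all calls as increases in place of 48.2%. With the replicate number as a block 6 rose (SRSF3, SRSF5, SRSF8, SRSF11, HNRNPH1 and HNRNPM) and HNRNPDL fell, where 7.8% of all genes rose and 7.7% fell, with adjusted p-values of 0.00053 for SRSF5 and 0.026 for HNRNPDL.

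Whether the effect of 1 drug depended on the other was tested as an interaction, for which 0 of the 32 genes passed in either direction by edgeR, DESeq2 or limma-voom, and 0% of all genes by edgeR. At an unadjusted p under 0.05, 2 genes passed (6.25%), against 3.54% of all genes. The smallest p-values were 0.033 for HNRNPUL2 (interaction -0.24 ± 0.1), 0.038 for HNRNPAB (0.31 ± 0.14) and 0.092 for HNRNPDL (-0.26 ± 0.14), each with an edgeR adjusted p of 1. HNRNPAB was at 492, 472 and 583 CPM in DMSO, at 444, 415 and 513 in prexasertib, at 280, 282 and 317 in 5-Ph-IAA and at 318, 319 and 332 with both drugs. Prexasertib thus went with lower values in the absence of 5-Ph-IAA and with higher ones in its presence. With the replicate number as a block, HNRNPAB passed (adjusted p 0.023), where 0.375% of all genes had a positive and 0.28% a negative interaction. HNRNPAB overlaps PHYKPL, which was at 14.5 CPM.

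Both drugs against DMSO, which shares its libraries with the comparisons above, gave 22 decreases (6 SRSF and 16 HNRNP) and 0 increases, where 14.2% of all genes fell and 11.8% rose. The median of the 32 was -0.42, and at an unadjusted p under 0.05, 23 genes passed, against 37.7% of all genes. HNRNPDL fell by 1.3 on the log2 scale (edgeR adjusted p 3.3e-06), SRSF2 by 1.08 (edgeR adjusted p 2.6e-06) and HNRNPD by 1.03 (edgeR adjusted p 2.4e-05). SRSF5 had 0.16 (edgeR adjusted p 0.17), SRSF8 -0.2 (edgeR adjusted p 0.18) and SRSF11 -0.07 (edgeR adjusted p 0.71). With the replicate number as a block 25 fell and SRSF5 rose (adjusted p 0.033, and 0.023 on library size alone), SRSF8 being among the decreases (adjusted p 0.032), where 23.5% of all genes fell and 21.2% rose. Library size alone made 65.2% of all calls increases in place of 45.4%.

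Libraries numbered 3 stood apart from those numbered 1 and 2 within every group, and several SR and hnRNP genes moved with the number. HNRNPH1 was lower in number 3 by 0.37 to 0.58 on the log2 scale in all 4 groups, and SRSF1 by 0.32 to 0.42. In all, 10 of the 32 genes were lower and 12 higher in number 3 in all 4 groups. The share of all genes that did so was not computed. Number 3 deviated over all genes tested, with correlations of 0.531 to 0.633 between its libraries. The counts are therefore not read as particular to SR and hnRNP genes. Those lower in number 3 included SRSF10, SRSF11, SRSF8 and SRSF6, and those higher in it included HNRNPL, SRSF9, HNRNPD and HNRNPAB. What a number stands for is not given in the labels. The 5-Ph-IAA decreases stood within each number, since SRSF1 differed by -0.89, -0.99 and -1 between the 5-Ph-IAA and DMSO libraries of number 1, 2 and 3, and SRSF2 by -1.17, -1.22 and -1.26. HNRNPH1 differed by -0.64, -0.7 and -0.55 in the same way, although its adjusted p without the block was only 0.037.

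Other splicing genes were followed in 5 lists, given here by their counts of calls, and differences between lists were not tested. Of all genes tested, 12.2% fell and 9.65% rose after 5-Ph-IAA. Among SR-related proteins 15% fell, among kinases, methyltransferases and importins 16.7%, and among decay and exon junction factors 7.14%. In this comparison and the main fit, these were near the share of all genes or below it. With both drugs against prexasertib they were 30%, 33.3% and 21.4% in the same order, where 10.4% of all genes fell. With the replicate number as a block, 10 of 20, 8 of 12 and 5 of 14 fell after 5-Ph-IAA, against 23.6% of all genes. On library size alone 1, 1 and 0 fell, against 6.73%. Whether these lists differ from all genes was not tested. Of 8 hnRNP proteins with other symbols, 3 fell and 0 rose after 5-Ph-IAA, with a median log2 fold change of -0.2 over the list. These were RBMX at -0.71 (edgeR adjusted p 4.4e-06), SYNCRIP at -0.71 (edgeR adjusted p 6.5e-06) and PCBP1 at -0.7 (edgeR adjusted p 3.6e-05). Of 20 SR-related proteins 3 fell and 0 rose (median -0.15), namely TRA2B at -0.44 (edgeR adjusted p 0.0013), an SR-like activator of exons, RNPS1 at -0.27 and SON, a speckle scaffold, at -0.28.

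Among 12 kinases, methyltransferases and importins that act on SR and hnRNP proteins, 2 fell and 1 rose (median -0.26). PRMT5, the arginine methyltransferase of Sm proteins, fell by 0.65 on the log2 scale (edgeR adjusted p 0.00062) and SRPK1, a kinase of SR proteins, by 0.26 (edgeR adjusted p 0.034), whereas its relative SRPK2 rose by 0.3 (edgeR adjusted p 0.013). Of 32 spliceosomal snRNP proteins tested, of 33 listed, 10 fell and 0 rose (median -0.17), led by SF3B3 at -0.48 (edgeR adjusted p 0.00025) and SNRNP40 at -0.66 (edgeR adjusted p 0.00026). Of 14 nonsense-mediated decay and exon junction factors 1 fell, UPF3B at -0.58 (edgeR adjusted p 0.0085), and 1 rose, SMG8 at 0.36 (edgeR adjusted p 0.015), with a median of -0.1. With both drugs against prexasertib the decreases numbered 4, 6, 4, 12 and 3 in these 5 lists, in the order given, and the increases 0, 0, 1, 1 and 1. Of all genes, 10.4% fell and 7.85% rose in that comparison. On library size alone the decreases after 5-Ph-IAA numbered 3, 1, 1, 4 and 0 and the increases 0, 0, 1, 3 and 3. That scaling gave 6.73% of all genes as lower and 20.6% as higher. In the arm with prexasertib it gave 3, 1, 1, 6 and 1 decreases and 0, 2, 1, 2 and 2 increases, where 6.06% of all genes fell and 17.5% rose. Several of these counts are near those shares. With the replicate number as a block, 6, 10, 8, 21 and 5 genes fell after 5-Ph-IAA, and 27 of the 32 SR and hnRNP genes, where 23.6% of all genes fell. In the arm with prexasertib the blocked decreases were 5, 12, 8, 16 and 4, and 28 of the 32 genes, where 19.9% of all genes fell.

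**Figure D4:**
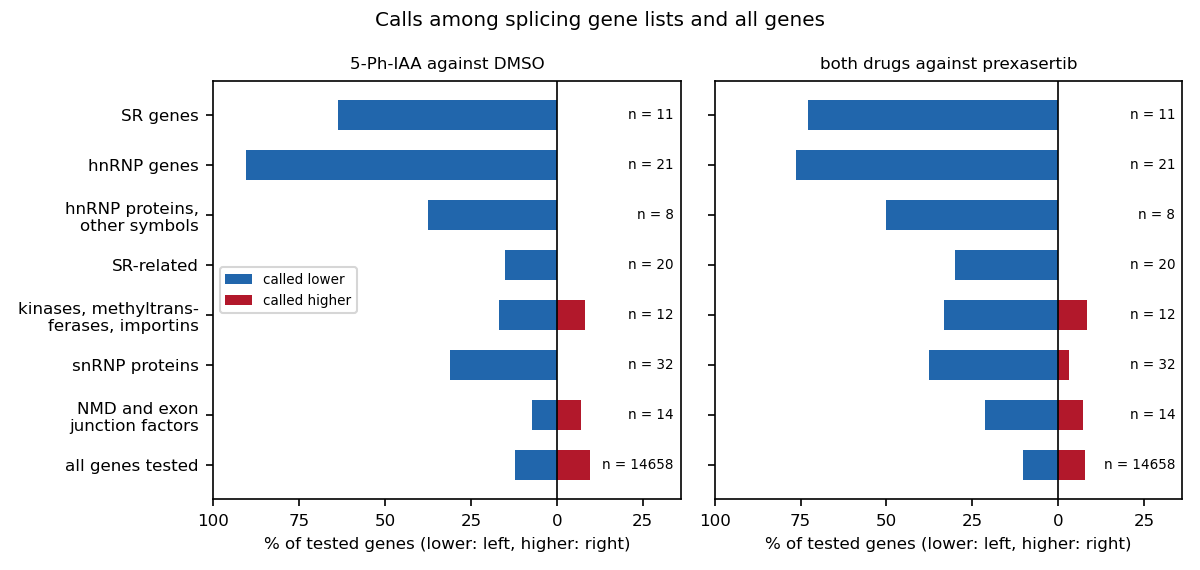
Bars give the percentage of tested genes of each list called lower (blue, to the left of 0) or higher (red, to the right) after 5-Ph-IAA without prexasertib (left panel) and with it (right panel), with the number tested at the right. The SRSF and HNRNP bars reach 63.6% and 90.5% lower in the left panel and 72.7% and 76.2% in the right panel, and the bar of all genes tested reaches 12.2% and 10.4%.

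Counts were per gene and held no isoforms, so productive transcripts and those with poison exons were summed. Of the 32 genes, 11 overlap another annotated gene and 6 overlap one with a mean over 1 CPM, by whole gene spans with introns included. Whether exons overlap was not checked, and the strand setting of the counting is not given in the sources used here. It is therefore not known whether reads of 1 gene were counted for the other. Besides those named, HNRNPH3 overlaps RUFY2 at 24.1 CPM and PBLD at 7.82 CPM, and HNRNPK overlaps RMI1 at 22.6 CPM. These are small beside HNRNPK, which was at 728 CPM in DMSO, and beside HNRNPH3 at 220 CPM.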

How the data were processed

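RNA was measured in 12 poly(A)-selected libraries from a directional kit, per the labels' protocols. The values are raw counts per gene, deposited in 1 table, which the authors made with featureCounts 2.0.8 on hg38, and limma 3.58.1 is also named, per the submitters' processing notes. Neither the aligner nor the annotation or strand setting is given in the sources used here. Of 28395 gene IDs, 27745 matched a symbol, and the rest held 0.0324% of counts. Counts were filtered with filterByExpr (minimum count 10, minimum total 15; 14658 genes with 99.92% of the counts) and fitted with edgeR 4.0.16 in R 4.3.3, with TMM factors (0.925 to 0.978 without 5-Ph-IAA, 1.02 to 1.1 with it), a robust quasi-likelihood F-test over all 12 libraries, and Benjamini-Hochberg adjustment over all genes. Genes were called at an adjusted p under 0.05, and the biological coefficient of variation was 12.8%. CPM used TMM library sizes, and log2 CPM used a prior count of 2. Marker levels used library size alone.

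The SR and hnRNP genes and the gene lists were chosen with earlier results of these data known. Every SR and hnRNP gene is named. Values per library are given for the 4 genes of each family with the smallest adjusted p in each direction for 5-Ph-IAA, the 2 for prexasertib and the 3 with the smallest interaction p, and in each other list the 2 called genes with the smallest adjusted p per direction are named. Other values per library, and RNPS1, SON and PCBP1, were added after their values were seen.

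Samples with the same replicate number deviated together from their group means, with correlations of 0.22 to 0.348 for number 1, 0.261 to 0.402 for number 2 and 0.531 to 0.633 for number 3, which meets the rule used here for pairing. Libraries numbered 1 and 2 correlated with each other as highly (0.196 to 0.366), so the pairing of numbers 1 and 2 is uncertain. Number 3 ran against both (-0.503 to -0.326). The deviations of the 3 libraries of a group sum to 0, so these negative values follow from number 3 standing apart. The correlation of numbers 1 and 2 may follow from it in part. The main fit held group terms only and no replicate term, because the labels do not say what a number stands for. The replicate number entered only as a block in an alternative fit, and another alternative left number 3 out. The labels do not say that libraries came from separate cultures. The p-values weigh group differences against the spread between these libraries, and that spread may be technical. Alternatives were DESeq2 1.42.0, limma-voom, library size alone, no filter, the replicate block, numbers 1 and 2 only, and leaving out each library.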

Additional observations from a re-analysis of the deposited data

Results flagged for a closer look

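HNRNPAB was flagged because its prexasertib libraries lay below the control mean without 5-Ph-IAA and above it with 5-Ph-IAA. Relative to the DMSO mean, prexasertib alone was at -0.209, -0.307 and 0 on the log2 scale. The library numbered 3 thus equalled the DMSO mean within rounding, so the flag was marginal. In pairs of same-numbered libraries, prexasertib went with differences of -0.15, -0.18 and -0.18 without 5-Ph-IAA and of 0.18, 0.18 and 0.07 with it. The difference between these effects, tested as the interaction, was 0.31 ± 0.14 on the log2 scale, with an unadjusted p of 0.038 and an edgeR adjusted p of 1. With the replicate number as a block its adjusted p was 0.023, and with libraries numbered 1 and 2 only the difference was 0.32 with an adjusted p of 0.03.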

How the results depend on the processing

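Among 18 alternatives (DESeq2, limma-voom, library size alone, no count filter, the replicate block, libraries numbered 1 and 2 only, and leaving out each of the 12 libraries), none reversed a called SR or hnRNP gene. Of the genes called lower, 19 of 26 (5-Ph-IAA against DMSO), 20 of 24 (both drugs against prexasertib) and 18 of 22 (both drugs against DMSO) kept the call in all of them. Decreases numbered 19 to 27 and 20 to 28 in the first and second of these comparisons over the alternatives that kept all libraries or numbers 1 and 2. In those fits 6.73% to 23.6% and 6.06% to 19.9% of all genes fell. Leaving out 1 library gave 21 (without 5-Ph-IAA replicate 1) to 26, 21 to 26, and 20 to 23 decreases, and 1 to 2 increases for prexasertib against DMSO, where any DMSO or prexasertib library left out gave 1. Over all genes the decreases in these fits numbered 1248 to 1984, 1112 to 1629 and 1578 to 2240. The increases of all genes for prexasertib against DMSO numbered 183 to 385. HNRNPC and HNRNPH1 lost the 5-Ph-IAA call without each of 7 libraries.

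For prexasertib against DMSO, increases numbered 1 with no filter, 5 with the replicate block and 5 with numbers 1 and 2 only, where 1.36%, 8.37% and 7.2% of all genes rose, and decreases 2 and 2 with the block and with those numbers, where 9.77% and 7.01% fell. For both drugs against 5-Ph-IAA, increases numbered 1 with DESeq2, 6 with the block and 6 with numbers 1 and 2, where 2.13%, 7.8% and 6.18% of all genes rose, and decreases 1 and 1, where 7.7% and 7.68% fell. Library size alone, the block and numbers 1 and 2 gave 1, 1 and 1 increase both for both drugs against prexasertib (17.5%, 17.2% and 13.1% of all genes) and for both drugs against DMSO (18.4%, 21.2% and 17.4%), and the block and numbers 1 and 2 gave 1 and 1 positive interaction (0.375% and 0.631%). The cause of these differences was not tested. The block lost no called SR or hnRNP gene. Depth limits HNRNPH2, with 49 to 95 counts per library, more than any other gene here.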
